A study of Mus musculus with 8 samples.

Results

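The genes described here are 32 members of the p53 pathway, taken by symbol from a list of the gene Trp53, its regulators and its transcriptional targets. All 32 were among the 27710 genes in the count files. RNA sequencing measured them in 8 libraries from mouse bone marrow depleted of lineage-positive cells, which is marrow enriched for blood stem and progenitor cells by removing mature cells. The cells were grown in medium with serum and cytokines that include SCF, Flt3L and IL3. The first group was Vav-iCre+ Alkbh5fl/fl cells fed 100 µM 4-thiouridine (s4U) for 2 h (3 libraries, called Alkbh5-deficient fed). The second was wild-type cells fed s4U in the same way (3 libraries, WT fed). Single libraries came from Alkbh5-deficient and from WT cells labelled as having received no agent (unlabelled). Vav-iCre is a recombinase expressed in blood-forming cells, and it removes the floxed part of Alkbh5, which codes for a demethylase of N6-methyladenosine in RNA. s4U is a uridine analogue that cells build into RNA, and all libraries, unlabelled ones included, were handled for TimeLapse sequencing, in which chemistry recodes the analogue so that newly made RNA can be read out. The sequencing used total RNA and a stranded kit for low inputs, and the values analysed here are counts per gene, not rates of base conversion.

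The p53 protein, encoded by Trp53, is a transcription factor that cells hold at a low level by degrading it. Mdm2, an E3 ubiquitin ligase, marks p53 for degradation, and Mdm2 is itself a p53 target, which closes a feedback loop. DNA damage, loss of nucleotides or disturbed ribosome production stabilise p53, which then activates genes of cell cycle arrest (Cdkn1a), of apoptosis (Bax, Bbc3, Pmaip1) and of DNA repair (Ddb2, Xpc). In blood stem and progenitor cells the pathway is known for stopping or killing cells after DNA damage. High exposure to s4U has been reported to disturb ribosomal RNA synthesis and to stabilise p53 in human cell lines, so the comparison of fed with unlabelled libraries asks whether the members moved with s4U, and the comparison of genotypes asks whether they moved with loss of Alkbh5. Trp53 mRNA does not measure p53 protein, which was not analysed here.

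Gene totals were between 5723245 and 8615997 counts per library. Alkbh5 itself had 0, 1 and 1 counts in the Alkbh5-deficient fed libraries and 1 count in the Alkbh5-deficient unlabelled library, against 1061 to 1479 counts in the 4 WT libraries. The 11 stem and progenitor markers (Kit, Cd34, Gata2 and others) were each above 1 CPM in all 8 libraries. Reads listed under no counted feature made up 37.6% and 38.3% of counts in replicate 1 of the Alkbh5-deficient and WT fed groups. They made up 48.9% to 52.1% in the other 6 libraries. The files do not say where in the genome these reads lie. WT fed replicate 3 stood apart in other ways: the non-coding RNA Gm26917 took 14.2% of its counts, against 6.33% to 8.34% elsewhere, and 7 stroma and endothelium markers summed to 1962 CPM, against 107 to 695 CPM. The fed libraries each carried RNA of 1 sex, with Xist but no Ddx3y in replicate 2 and the reverse, apart from at most 2 counts of Xist, in replicates 1 and 3. Both unlabelled libraries carried both RNAs, so s4U feeding and a different or pooled source of cells cannot be told apart in any fed against unlabelled comparison.

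Short stretches of DNA before the transcription starts show where a p53 half-site, the 10-base motif that 1 p53 dimer contacts, occurs by its letters. Within the 250 bases before RefSeq starts (GRCm38.p6), 12 of the 24 members with a window (50.0%) held at least 1 half-site, against 2216 of 27018 genes with a window (8.20%). The members were listed as p53 and its targets, so the choice of genes itself favours such motifs. They also had 33 windows for 24 genes, against 32841 windows for the 27018. The motif was searched on both strands, and it reads as the same pattern on each. A full element of 2 half-sites with at most 13 bases between them was found in 1 of the 24 members (4.17%), Cdkn1a, and in 18 of all genes (0.0666%). The sequences below, from RefSeq, are those of members whose values are described further on. They run 5′ to 3′ on the gene's strand, and capitals mark each half-site.
Cdkn1a, chr17:29090896-29090947, plus strand: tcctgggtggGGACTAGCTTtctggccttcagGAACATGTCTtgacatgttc
Mdm2, chr10:117710925-117710954, minus strand: agtcggatagGAACTTGCCTagcgaccatt
Trp53, chr11:69580274-69580303, plus strand: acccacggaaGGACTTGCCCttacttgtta
Pml, chr9:58249911-58249940, minus strand: cccgcatgccGGGCTTGTTTacttgcttgt
Ccng1, chr11:40755452-40755481, minus strand: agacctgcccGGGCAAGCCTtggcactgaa
Bax, chr7:45467080-45467109, minus strand: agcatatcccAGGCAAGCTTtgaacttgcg
Ei24, chr9:36797335-36797354, minus strand: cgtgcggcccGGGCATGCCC
Polk, chr13:96519399-96519428, minus strand: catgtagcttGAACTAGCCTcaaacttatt

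The Trp53 stretch also lies before Wrap53, which starts nearby on the opposite strand, so those 2 members share 1 match. The Polk and Ei24 matches lie before RefSeq starts inside the GENCODE gene. Aen, Ppm1d and Sesn1 held a half-site too, and the matches of Aen and Sesn1 also lie inside the GENCODE gene. The 12 members with a half-site had a median log2 fold change with s4U of 0.03, and 7 were positive. The 11 tested members that had a window but no half-site had a median of -0.13, and 3 were positive. Over all tested genes the median was 0.03 and 52.1% were positive. No difference between these groups was tested. A match in these letters is a description of the sequence, not evidence of a bound site, and p53 sites that lie farther from the start were not searched.

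All 32 members were detected in all 8 libraries, but over a wide range of levels. Levels are given as CPM, which are gene counts brought to a common library total with TMM scaling over 8 libraries. Per kilobase of annotated exon, the fed libraries averaged 57.0 CPM per kb for Cdkn1a, 28.9 for Pmaip1, 27.5 for Trp53, 24.8 for Bax, 24.0 for Bbc3 and 20.3 for Mdm2. Thus the main effectors of arrest and apoptosis were at the top of the order, next to Trp53 and its ligase. At the bottom were Phlda3 (0.658 CPM per kb), an inhibitor of Akt, then Zmat3 (0.582), an RNA-binding protein, and Tnfrsf10b (0.581), the TRAIL death receptor. Eda2r, a receptor for ectodysplasin, was lowest (0.0674 CPM per kb, 1 to 7 counts per library). Eda2r was too low to be tested in any comparison, and Phlda3 (1 to 19 counts) too low in the comparison of genotypes.

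No member rose or fell with s4U in the edgeR quasi-likelihood test of the 6 fed against the 2 unlabelled libraries, with genotype as a covariate. The threshold was a Benjamini-Hochberg adjusted p of 0.05 over all 14988 genes tested, of which 0.0267% passed as higher and 0% as lower. Among the 31 members tested, 13 had a positive (background 52.1%) and 18 a negative (background 47.9%) log2 fold change, with a median of -0.11, against 0.03 over all genes. By unadjusted p under 0.05 there were 3 higher members (background 9.53%) and 5 lower members (background 10%). The members' count was thus near the background as higher, and somewhat above it as lower. DESeq2, run as an alternative, passed 0 members as higher (background 2.21%) and 2 as lower, Polk and Mdm4 (background 1.86%). It gave no adjusted p to Phlda3, Zmat3, Gdf15, Fas, Tnfrsf10b, Perp, Ddb2 and Tigar, so these could not pass. Genes without an adjusted p count as not passed in the DESeq2 background shares. In simulated data with the same layout edgeR recovered 58% of genes changed 1 log2 unit and 100% of genes changed 2 units. The simulation gave every gene the same spread and changed only genes above a floor of counts. It held no trend by length and no pattern by replicate number. These shares may therefore not hold for the members, least of all for those with few counts. The labels do not say that libraries came from separate animals or cultures, so every p here measures the spread between these samples only.

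**Figure D1:**
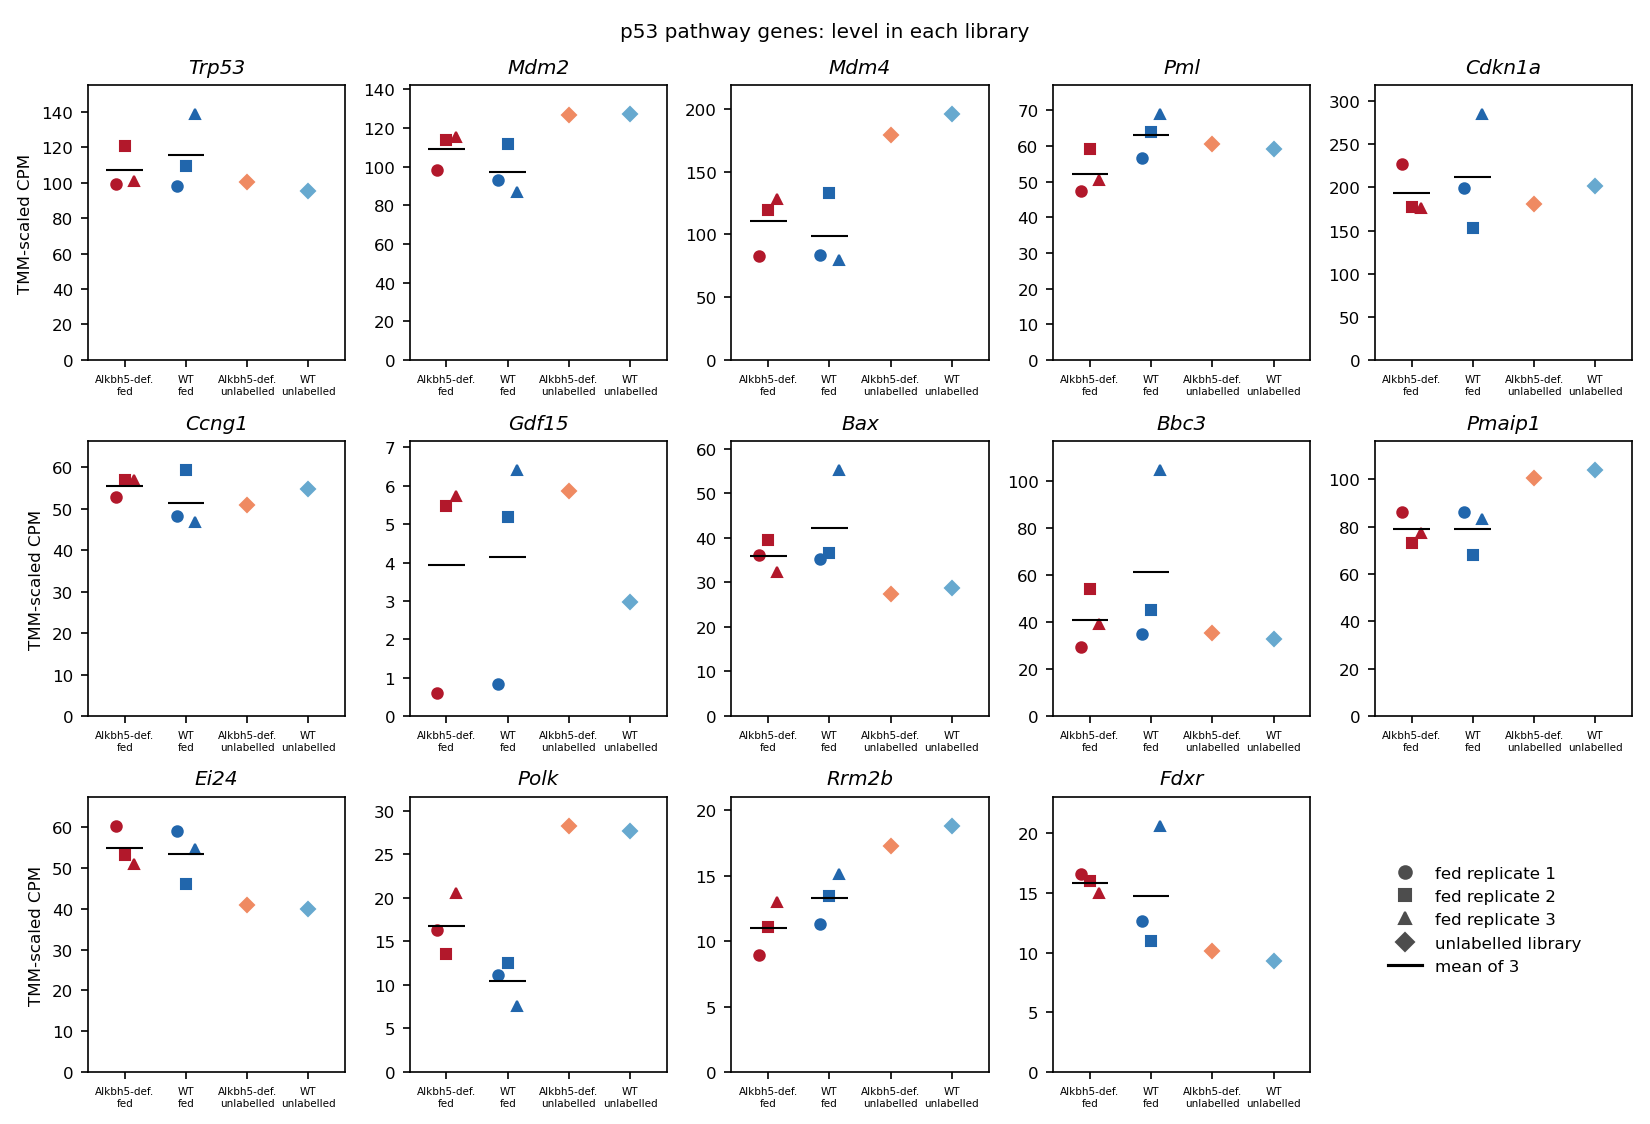
Level of 14 p53 pathway genes in each library, as TMM-scaled CPM on linear axes that start at 0. Columns are Alkbh5-deficient fed, WT fed, Alkbh5-deficient unlabelled and WT unlabelled. Symbols mark the replicate number and black lines the mean of 3 fed libraries. Polk, Mdm4, Mdm2, Pmaip1 and Rrm2b lie lower in all 6 fed libraries than in both unlabelled ones, Bax, Ei24 and Fdxr lie higher, and WT fed replicate 3 is the highest library for Trp53, Cdkn1a, Bax and Bbc3.

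Among p53 and its regulators, Trp53 had 99.2, 121 and 101 CPM in Alkbh5-deficient fed and 98.4, 109 and 138 CPM in WT fed libraries, against 101 CPM in Alkbh5-deficient and 95.1 CPM in WT unlabelled libraries. Fed and unlabelled libraries overlapped, and the highest value was that of WT fed replicate 3. The log2 fold change of Trp53 with s4U was 0.18 ± 0.17 (SE, 95% interval -0.19 to 0.55).

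Mdm2 had 98.1, 114 and 115 CPM in Alkbh5-deficient fed and 93.2, 112 and 86.7 CPM in WT fed libraries, against 127 CPM in each unlabelled library. All 6 fed libraries were lower than both unlabelled ones, by a margin that did not pass the test (log2 fold change -0.30 ± 0.14, edgeR adjusted p = 0.283). Its homologue Mdm4, which binds p53 and blocks its activation domain, had 82.9, 119.7 and 128 CPM in Alkbh5-deficient fed and 83.9, 133 and 79.3 CPM in WT fed libraries, against 179 and 196 CPM in the Alkbh5-deficient and WT unlabelled libraries. The fed libraries did not reach the unlabelled ones in either genotype. The log2 fold change of Mdm4 was -0.84 ± 0.22 (edgeR adjusted p = 0.165, DESeq2 adjusted p = 0.0336).

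The DESeq2 call of Mdm4 was lost without the WT unlabelled library (adjusted p = 0.999) or the Alkbh5-deficient unlabelled library (0.663). It was also lost without replicate 1 of the Alkbh5-deficient fed group (0.0512), replicate 2 of that group (0.0652) or replicate 1 of the WT fed group (0.0650). With the trend by exon length removed, described below, it was -0.54 on the log2 scale (DESeq2 adjusted p = 0.0997). The other 3 regulators overlapped between fed and unlabelled libraries. Ppm1d, a phosphatase that switches p53 signalling off, stayed between 41.7 and 48.5 CPM in all 8 libraries. Pml, the scaffold of nuclear bodies, was between 47.4 and 68.9 CPM, and Wrap53, a telomerase cofactor, between 11.3 and 19.6 CPM.

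Among the genes of arrest and growth control, Cdkn1a, the cyclin-dependent kinase inhibitor p21, had 227, 177 and 176 CPM in Alkbh5-deficient fed and 199, 153 and 285 CPM in WT fed libraries, against 181 CPM in Alkbh5-deficient and 201 CPM in WT unlabelled libraries. Both unlabelled values lay inside the fed range. Its log2 fold change with s4U was 0.09 ± 0.22, with a 95% interval of -0.40 to 0.58, and -0.04 without WT fed replicate 3.

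Ccng1, a cyclin G that is a p53 target in most tissues, had 52.9, 57.0 and 57.0 CPM in Alkbh5-deficient fed and 48.4, 59.3 and 46.9 CPM in WT fed libraries, against 51.0 and 54.7 CPM in the Alkbh5-deficient and WT unlabelled libraries. The groups overlapped, and the log2 fold change was 0.02 ± 0.15 (95% interval -0.31 to 0.35). Gdf15, a secreted stress cytokine, had 0.598, 5.47 and 5.75 CPM in Alkbh5-deficient fed and 0.831, 5.18 and 6.40 CPM in WT fed libraries, against 5.87 CPM in Alkbh5-deficient and 2.98 CPM in WT unlabelled libraries. Replicate 1 of both fed groups, with 4 counts in the Alkbh5-deficient and 5 counts in the WT library, was far below the other 4 fed libraries. Its log2 fold change of -0.11 ± 0.75 (edgeR) was 0.38 without replicate 1 of both genotypes.

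Other members of this group were lower or more variable. Triap1, an inhibitor of apoptosis, was between 9.97 and 16.3 CPM, Sesn1, a brake on mTORC1, between 12.1 and 26.5 CPM, and Zmat3 between 4.82 and 8.15 CPM. Trp53inp1, a stress protein of autophagy and apoptosis, varied 3.39 times between the lowest and highest fed library. It had 22.4, 39.5 and 29.4 CPM in Alkbh5-deficient fed and 35.2, 55.8 and 16.5 CPM in WT fed libraries, against 51.2 and 59.8 CPM in the Alkbh5-deficient and WT unlabelled libraries. WT fed replicate 2 alone overlapped with the unlabelled libraries.

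The apoptosis genes went in both directions. Bax, which permeabilises the mitochondrial outer membrane, had 36.2, 39.5 and 32.2 CPM in Alkbh5-deficient fed and 35.2, 36.5 and 55.1 CPM in WT fed libraries, against 27.3 and 28.6 CPM in the Alkbh5-deficient and WT unlabelled libraries. All 6 fed libraries were higher than both unlabelled ones, and the log2 fold change was 0.48 ± 0.21 (edgeR adjusted p = 0.242). Bax shares 192 exon bases with Gm45808 on the same strand, and reads assigned to neither gene for that reason were 5.30% of the Bax and shared reads together.

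Bbc3, the BH3-only killer PUMA, had 29.1, 54.0 and 39.0 CPM in Alkbh5-deficient fed and 34.7, 45.0 and 104 CPM in WT fed libraries, against 35.2 CPM in Alkbh5-deficient and 32.9 CPM in WT unlabelled libraries. One library, WT fed replicate 3, was far above all others, and the groups overlapped (log2 fold change 0.53 ± 0.41, edgeR adjusted p = 0.492). Pmaip1, the BH3-only protein NOXA, had 86.0, 73.0 and 77.5 CPM in Alkbh5-deficient fed and 86.1, 68.0 and 83.2 CPM in WT fed libraries, against 101 and 104 CPM in the Alkbh5-deficient and WT unlabelled libraries. Here the fed libraries were all lower, opposite to Bax (log2 fold change -0.37 ± 0.14, edgeR adjusted p = 0.204). Ei24, a p53-induced protein of the endoplasmic reticulum, had 60.2, 53.2 and 51.1 CPM in Alkbh5-deficient fed and 59.2, 46.2 and 54.7 CPM in WT fed libraries, against 40.9 and 40.0 CPM in the Alkbh5-deficient and WT unlabelled libraries. All fed values of Ei24 were higher (log2 fold change 0.42 ± 0.15, edgeR adjusted p = 0.199).

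The death receptors were low, and their fed and unlabelled libraries overlapped. Fas was between 3.49 and 10.3 CPM, Tnfrsf10b between 2.32 and 4.79 CPM, and the membrane protein Perp, a p53 effector of apoptosis and cell adhesion, between 1.23 and 2.84 CPM. Downstream of the mitochondria, Apaf1, the apoptosome scaffold that activates caspase-9, was at 60.3 to 85.9 CPM in the fed libraries, against 88.5 and 100.4 CPM in the Alkbh5-deficient and WT unlabelled libraries. Pidd1, a scaffold that activates caspase-2, was between 17.5 and 29.5 CPM, and Aen, a nuclease of apoptotic cells, between 50.8 and 63.1 CPM, in all 8 libraries.

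The DNA repair and nucleotide group held the largest difference of any member. Polk, a translesion DNA polymerase, had 16.3, 13.5 and 20.5 CPM in Alkbh5-deficient fed and 11.1, 12.5 and 7.56 CPM in WT fed libraries, against 28.2 and 27.7 CPM in the Alkbh5-deficient and WT unlabelled libraries. All fed values were lower, and the log2 fold change was -1.08 ± 0.24 (95% interval -1.62 to -0.54, edgeR adjusted p = 0.165). Across the alternatives for Polk, adjusted p-values lay between 0.0145 and 0.999 and log2 fold changes between -1.41 and -0.73.

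DESeq2 passed Polk (adjusted p = 0.0158), also with the length trend removed (0.0331), where 1.27% of genes passed as higher and 0.499% as lower. This call was lost without the WT unlabelled library (0.999), the Alkbh5-deficient unlabelled library (0.663) or replicate 2 of the Alkbh5-deficient fed group (0.0613). Rrm2b, the p53-inducible subunit of ribonucleotide reductase, had 8.96, 11.1 and 13 CPM in Alkbh5-deficient fed and 11.3, 13.5 and 15.1 CPM in WT fed libraries, against 17.3 and 18.8 CPM in the Alkbh5-deficient and WT unlabelled libraries. The fed libraries were all lower (log2 fold change -0.57 ± 0.20, edgeR adjusted p = 0.187). Exons of Rrm2b overlap the antisense gene Gm49085, and those of Ddb2 the gene Acp2, on the other strand. The files kept strands apart, since 99.9% of the matched entries for reads in several genes named genes on the same strand.

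The 3 nucleotide excision repair members overlapped between fed and unlabelled libraries. Xpc, which recognises distorted DNA, was between 40.4 and 51.7 CPM, Ercc5, which makes the 3′ cut, between 15.8 and 24.9 CPM, and Ddb2, which recognises ultraviolet damage, between 2.69 and 5.87 CPM. Of the metabolic members, Fdxr, which passes electrons from NADPH to mitochondrial ferredoxin, had 16.6, 16.0 and 15.0 CPM in Alkbh5-deficient fed and 12.6, 10.9 and 20.6 CPM in WT fed libraries, against 10.1 and 9.32 CPM in the Alkbh5-deficient and WT unlabelled libraries. Fed libraries were all higher, narrowly so for WT fed replicate 2 (log2 fold change 0.65 ± 0.26, edgeR adjusted p = 0.220). Tigar, a phosphatase that lowers fructose-2,6-bisphosphate, was between 4.49 and 9.68 CPM and overlapped.

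**Figure D2:**
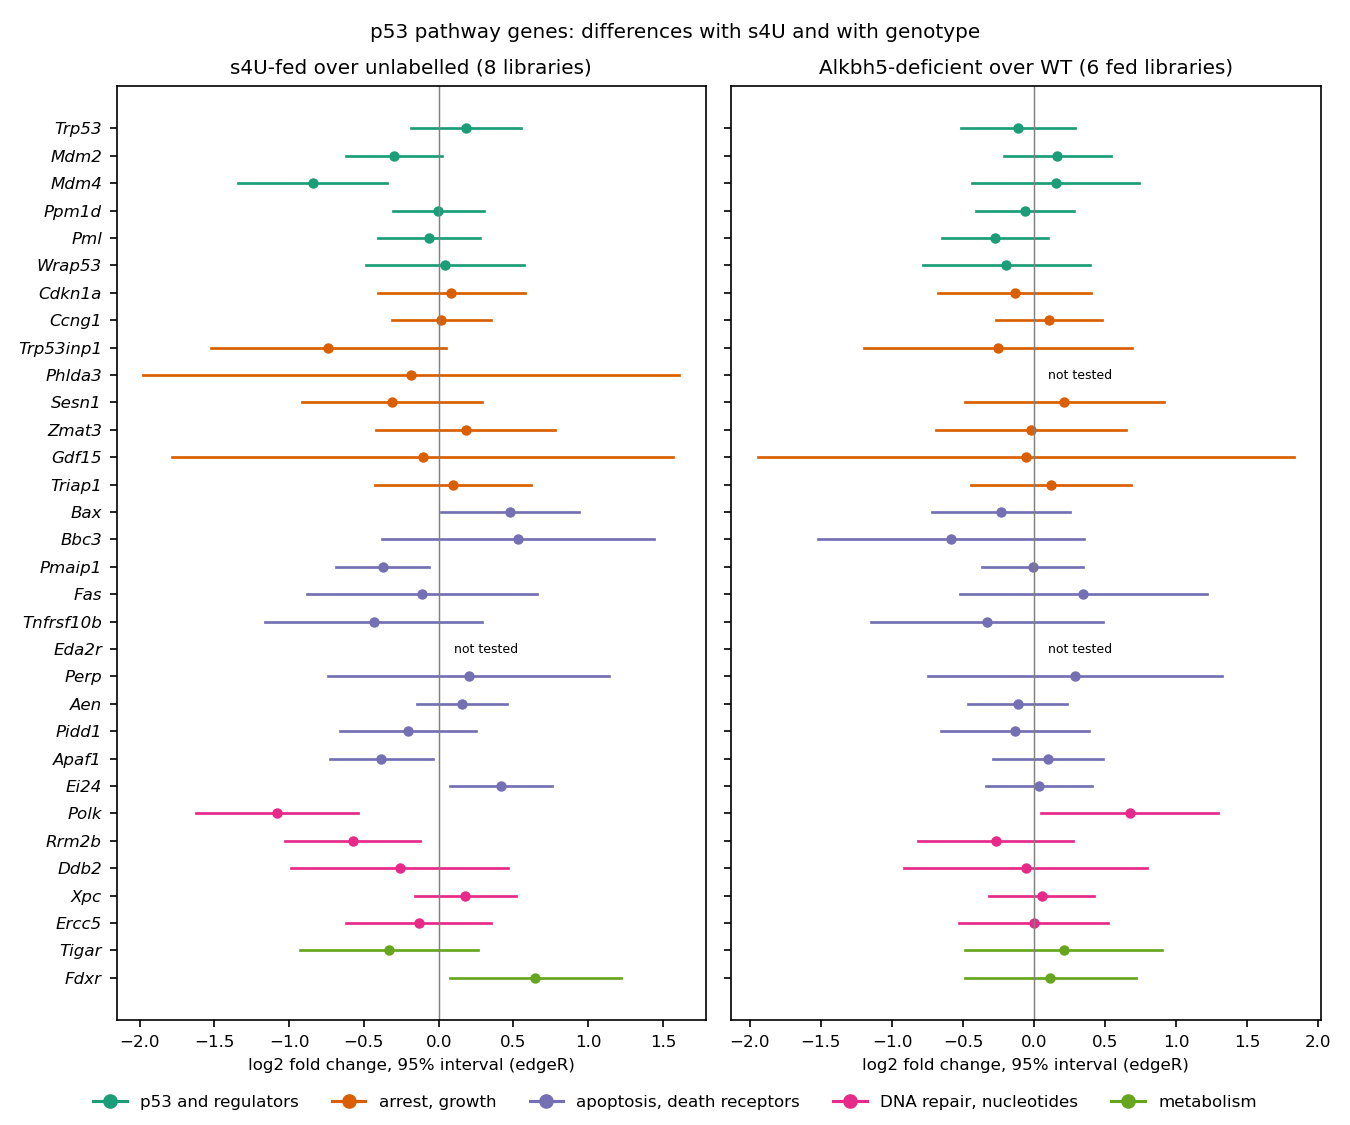
Log2 fold change of each member with its 95% interval (edgeR) for s4U-fed over unlabelled libraries on the left and Alkbh5-deficient over WT fed libraries on the right, coloured by role. On the left Polk, at -1.08, and Mdm4, at -0.84, lie farthest from 0. On the right the interval of Polk alone, at 0.67, leaves out 0, and no member passed the adjusted threshold on either side.

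In all, 3 members (Bax, Ei24 and Fdxr) had every fed library above both unlabelled ones, where 14.7% of all tested genes did. In 6 members (Mdm2, Mdm4, Pmaip1, Apaf1, Polk and Rrm2b) every fed library was below both, where 16.2% of genes did. Both counts of members were thus near the share of the transcriptome. Canonical p53 targets were on both sides, with Bax above and Mdm2 and Pmaip1 below, and Cdkn1a and Ccng1 on neither.

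Several measures moved with feeding beside these members. Of the 9 neutrophil markers, 5 were higher in every fed library than in both unlabelled ones (background 14.7%). Their sum was 6794 to 13080 CPM in the fed and 5086 to 5891 CPM in the unlabelled libraries. The sum of 7 markers of mast cells, basophils and eosinophils was 741 to 1722 CPM in the fed and 507 to 605 CPM in the unlabelled libraries. Of these 7, 2 were higher in every fed library (background 14.7%). The 11 stem and progenitor markers summed to 1414 to 1672 CPM in the fed and 1679 to 1732 CPM in the unlabelled libraries, a narrow gap. They went both ways, with 3 lower (background 16.2%) and 1 higher (background 14.7%) in every fed library than in both unlabelled ones. The part of these in the members' values was not tested. In bulk RNA, fewer cells of a type and less RNA per cell cannot be told apart.

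Exon length moved with feeding too. Across 14831 genes with an annotated length, the Spearman correlation between exon length and a library's deviation from the mean was 0.32 in the Alkbh5-deficient and 0.28 in the WT unlabelled library, and between -0.19 and 0.10 in the fed libraries. Across the 31 tested members, which are not independent, the correlation of length with the s4U log2 fold change was -0.42, and over all genes it was -0.32. The 12 members over 5000 bases had a median log2 fold change of -0.34, with 9 negative, and the 19 shorter members a median of 0.02, also with 9 negative. All genes had medians of -0.14 and 0.14 in the same length classes.

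Mdm4, the longest member at 14798 bases, moved most when the trend was removed, to -0.54. Bax, at 1576 bases, came to 0.31 and Rrm2b, at 9134 bases, to -0.38. Polk stayed at -1.01, Pmaip1 at -0.45 and Ei24 at 0.46. After removal the members' median was -0.14, against 0.04 for all genes, and their correlation with length was -0.15.

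**Figure D3:**
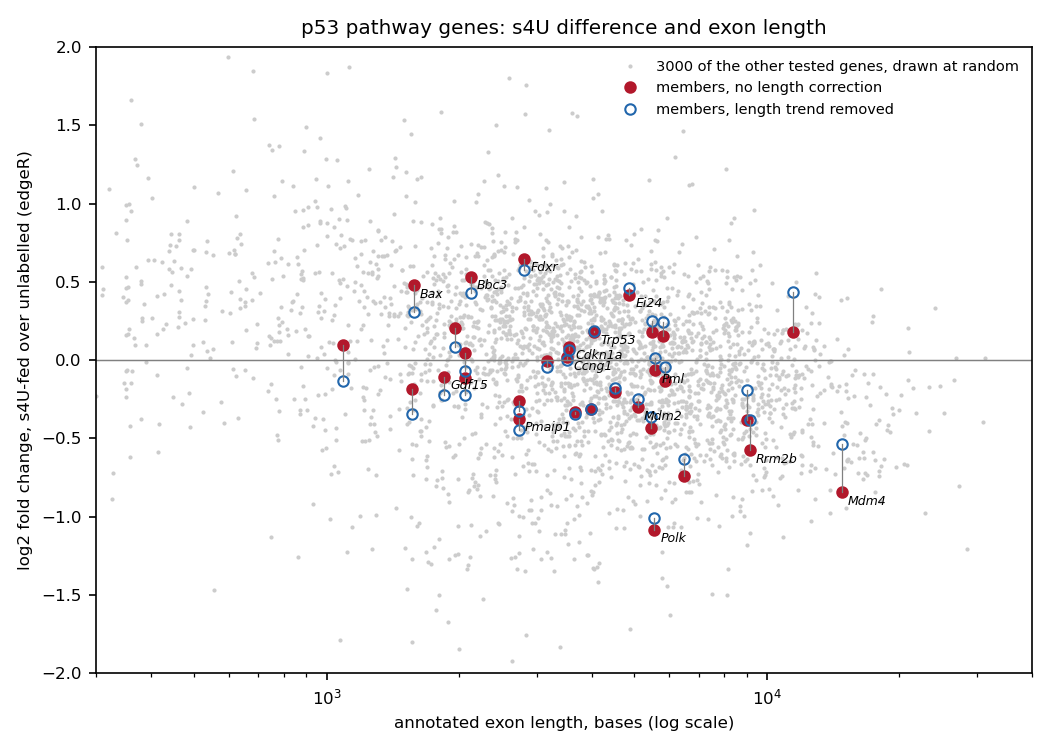
Log2 fold change of s4U-fed over unlabelled libraries against annotated exon length (log scale) for the 31 tested members, before (filled) and after (open) removal of the trend by length, with grey points for 3000 of the other tested genes drawn at random. The grey points slope downwards, and Mdm4, at the right, lies at -0.54 after and -0.84 before removal, while Polk lies at -1.01 after and -1.08 before.

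No member passed the test between the genotypes. The edgeR test of 3 Alkbh5-deficient fed against 3 WT fed libraries passed 0 of 30 members tested in either direction (background 0% higher and 0.0075% lower of 13342 genes), and DESeq2 also passed 0 (background 0% and 0.015%). By unadjusted p under 0.05, 1 member was higher (background 0.397%) and 0 were lower (background 0.735%). The log2 fold changes were positive for 13 members (background 50.2%) and negative for 17 (background 49.8%), with a median of -0.01, against 0.00 over all genes. On simulated data of this design edgeR recovered 66% of changes of 1 log2 unit and 100% of changes of 2 units. The limits given for the simulation with s4U hold here too. A fit with the replicate number as a block passed 0 members as well.

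Of single members, Polk had the largest difference. Alkbh5-deficient fed libraries averaged 16.8 ± 3.51 CPM and WT fed libraries 10.4 ± 2.57 CPM of Polk (SD, n = 3 each). The 2 groups did not overlap, in 1 member, where 2.62% of genes had all 3 Alkbh5-deficient libraries above all 3 WT ones. The ratio of Alkbh5-deficient to WT was 1.46, 1.08 and 2.71 for replicate numbers 1, 2 and 3, higher in 3 of 3 pairs. The log2 fold change of Polk was 0.67 ± 0.27 (edgeR adjusted p = 1.00). In the unlabelled pair the 2 genotypes had 28.2 CPM (Alkbh5-deficient) and 27.7 CPM (WT) of Polk.

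Trp53 averaged 107 ± 12.0 CPM in Alkbh5-deficient fed and 115 ± 20.7 CPM in WT fed libraries (SD, n = 3 each). This made a log2 fold change of -0.11 ± 0.18 (95% interval -0.51 to 0.29), and 0.04 without WT fed replicate 3. Mdm2 averaged 109 ± 9.63 CPM in Alkbh5-deficient fed and 97.2 ± 13 CPM in WT fed libraries and was higher in 3 of 3 pairs, with ratios of 1.05, 1.02 and 1.33. The ranges of the 2 groups overlapped (log2 fold change 0.16 ± 0.16). Pml averaged 52.3 ± 6.05 CPM in Alkbh5-deficient fed and 63.1 ± 6.21 CPM in WT fed libraries and was lower in 3 of 3 pairs (log2 fold change -0.27 ± 0.16). The ranges of Pml overlapped.

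Bbc3 averaged 40.7 ± 12.5 CPM in Alkbh5-deficient fed and 61.4 ± 37.6 CPM in WT fed libraries, and its log2 fold change of -0.59 ± 0.41 (edgeR) turned to 0.03 without WT fed replicate 3. The same holds for Cdkn1a, with a log2 fold change of -0.14 ± 0.23 that became 0.14, and for Bax, with -0.23 ± 0.21 that became 0.00. Thus the negative signs of Trp53, Cdkn1a, Bax and Bbc3 rested on 1 WT library. Ccng1 (0.10 ± 0.16), Pmaip1 (-0.01 ± 0.16) and Rrm2b (-0.27 ± 0.24) had overlapping groups, and the interval of Gdf15 (-1.94 to 1.83 around -0.06) was too wide to place it. Rrm2b was lower in 3 of 3 pairs, with ratios of 0.793, 0.822 and 0.859.

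Over all members, 3 were higher in 3 of 3 same-numbered pairs (Mdm2, Polk and Tigar, background 11.7%), and 4 were lower (Pml, Tnfrsf10b, Aen and Rrm2b, background 11.5%). No member had all Alkbh5-deficient libraries below all WT ones (background 3.06%). In the same comparison all 7 markers of mast cells, basophils and eosinophils had negative log2 fold changes (median -0.56), and 9 of 10 monocyte and macrophage markers positive ones (median 0.23). The 4 tested stroma and endothelium markers had a median of -0.71. The 7 listed ones summed to 108, 658 and 695 CPM in Alkbh5-deficient fed and to 107, 376 and 1962 CPM in WT fed libraries, so the WT group was the higher one through replicate 3 alone. None of these markers passed the adjusted edgeR threshold. Their part in the members' values was not tested.

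The s4U difference was not detectably different between the genotypes for any member. The interaction of genotype and s4U passed 0 of 31 members in either direction by edgeR or DESeq2 (background 0%), and 0 had an unadjusted p under 0.05 (background 0.0534% positive and 0.107% negative). This test rests on 1 unlabelled library per genotype. On simulated data it recovered 5% of differences of 1 log2 unit and 37% of differences of 2 units, so a difference of either size could have been missed.

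Between the single unlabelled libraries there is no replicate check, and the intervals given cover counting error only. The ratio of Alkbh5-deficient to WT lay above 1 for 2 members (background 8.81%) and below 1 for 4 (background 7.1%) by their 95% exact intervals. Gdf15 was at 1.97 (1.19 to 3.37), from 54 counts in the Alkbh5-deficient and 23 counts in the WT library, and Ercc5 at 1.36 (1.09 to 1.68), from 229 and 142 counts in the same order. Below 1 were Trp53inp1 at 0.857, Apaf1 at 0.882, Cdkn1a at 0.899 and Mdm4 at 0.916. The count of members above 1 was thus near its background, and that of members below 1 somewhat above it.

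Libraries within the fed groups varied among themselves as well. The highest fed library was 1.16 times the lowest for Ppm1d, 1.24 for Aen and 1.26 for Ccng1, but 3.58 for Bbc3 and 10.7 for Gdf15. WT fed replicate 3 was the highest fed library for 15 of the 31 members tested with s4U (48.4%), where it was highest for 28.3% of all genes. These 15 included Trp53, Cdkn1a, Sesn1, Zmat3, Bax, Bbc3, Pidd1 and Fdxr. It was the lowest fed library for 7 others (22.6%, against 26.7% of all genes), namely Mdm2, Mdm4, Ccng1, Trp53inp1, Fas, Apaf1 and Polk.

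Some members, like many other genes, differed between the 2 replicate 1 libraries and the other 4 fed ones. Of the 31 members tested with s4U, 8 were lower in both replicate 1 libraries than in the other 4 (background 19.6%). These were Trp53, Sesn1, Gdf15, Bbc3, Aen, Pidd1, Ddb2 and Ercc5. Another 3, Pmaip1, Ei24 and Xpc, were higher in both (background 20.5%). The count of lower members was thus somewhat above its background and that of higher members below it. In the replicate 1 libraries the sum of 10 monocyte and macrophage markers was 6142 CPM (Alkbh5-deficient) and 5288 CPM (WT), against 2057 to 3170 CPM in the other 4 fed libraries. Stroma and endothelium markers summed to 108 CPM (Alkbh5-deficient) and 107 CPM (WT), against 376 to 1962 CPM. What part these have in the members' values was not tested.

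**Figure D4:**
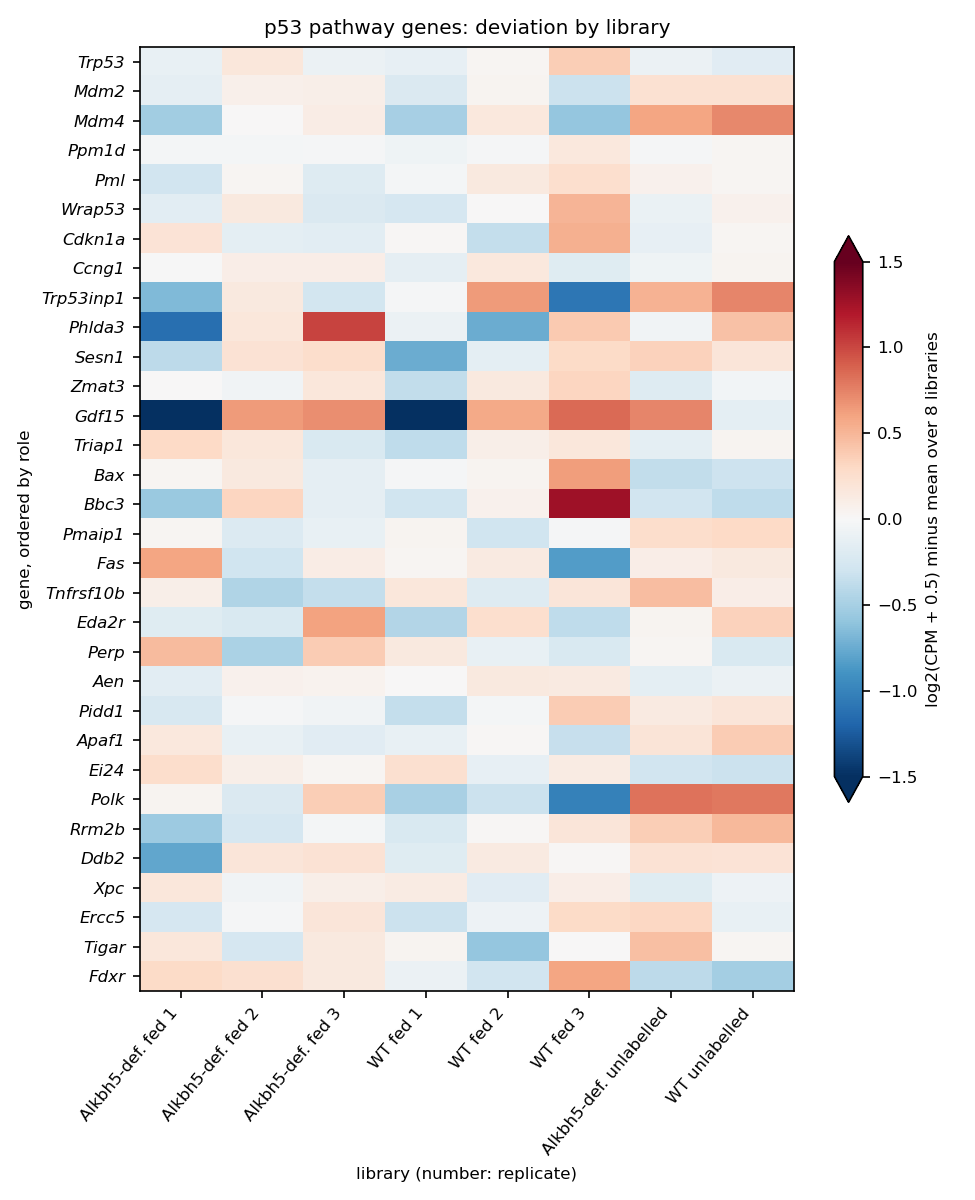
Log2 of CPM plus 0.5 in each library minus the mean over 8 libraries, for the 32 members ordered by role. The colour scale ends at 1.5 in each direction. Blue cells for Gdf15 mark replicate 1 of both genotypes, the red cell for Bbc3 marks WT fed replicate 3, and Polk and Mdm4 are red in both unlabelled libraries.

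Other genes of the pathway were followed in 4 lists. Of 21 tested upstream factors (kinases, acetyltransferases and cofactors of p53), 0 passed edgeR with s4U, and 2 higher and 6 lower genes had an unadjusted p under 0.05, where 9.53% and 10% of all tested genes did. Here 4 were positive and 17 negative, with a median log2 fold change of -0.21, while over all genes 52.1% were positive and the median was 0.03. DESeq2 passed Brca1, a homologous recombination factor, as lower (background 1.86%). Brca1 averaged 78.0 ± 8.01 CPM in Alkbh5-deficient fed and 70.4 ± 16.0 CPM in WT fed libraries. The Alkbh5-deficient and WT unlabelled libraries had 131 and 119 CPM of Brca1. Its edgeR log2 fold change was -0.75 ± 0.17, and its DESeq2 adjusted p was 0.0178. Of 30 further p53 targets, 20 were positive and 10 negative, with a median of 0.16. None passed either tool, and 5 higher genes (background 9.53%) and 0 lower genes (background 10%) had an unadjusted edgeR p under 0.05. The smallest edgeR p-values among them belonged to Dcxr (0.88 ± 0.30), a carbonyl reductase, and Abhd4 (0.50 ± 0.20), a lipase. DESeq2 gave no adjusted p to Dcxr, so Dcxr could not pass by that tool.

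Of 27 cell cycle genes that p53 represses through p21, 20 were positive and 7 negative, with a median log2 fold change of 0.21. None passed either tool, and 4 higher (background 9.53%) and 1 lower (background 10%) had an unadjusted edgeR p under 0.05. Birc5, the survivin gene, was at 0.46 ± 0.16 and Cdc20, an activator of the anaphase-promoting complex, at 0.42 ± 0.16. Among 16 genes of the Bcl-2 family and the caspase pathway the median was 0.04, and 2 higher and 2 lower genes had an unadjusted edgeR p under 0.05, against the same backgrounds. DESeq2 passed Bad, a BH3-only protein, as higher (edgeR log2 fold change 1.06 ± 0.28, DESeq2 adjusted p = 0.0222, background 2.21%). It passed Bcl2l11, the BH3-only protein BIM, as lower (edgeR log2 fold change -0.44 ± 0.13, DESeq2 adjusted p = 0.0445, background 1.86%). Neither passed edgeR (adjusted p = 0.165 each). The DESeq2 calls of Brca1 and Bcl2l11, like those of Polk and Mdm4, were lost without the WT or the Alkbh5-deficient unlabelled library. That check is not given for Bad, and length-corrected values are not given for Brca1, Bad or Bcl2l11. No difference between a list and all genes was tested, and length and markers moved in the same comparison. With genotype, none of the 4 lists had a gene past edgeR or DESeq2 or with an unadjusted edgeR p under 0.05, and their medians were 0.03, -0.11, 0.02 and 0.02 in the same order.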

How the data were processed

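RNA was sequenced from 8 libraries. The deposited files hold whole-number read counts per gene, 1 file per library, which the authors did not normalise. The submitters' processing notes name HISAT2, STAR, HTSeq, DESeq2, Picard and cutadapt and the builds GRCm38 and mm10, with no version or role. Each file also lists 928 entries that name no gene, among them 927 for reads in several genes, and these stayed out of totals and tests. Reads listed under no counted feature were 37.6% to 52.1% of counts. Of the symbols, 27070 of 27710 matched GENCODE M21 (GRCm38), the source of exon lengths, strands and overlaps. Promoter windows are RefSeq's (GRCm38.p6).

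Counts were tested with edgeR 4.0.16 (R 4.3.3): TMM scaling, robust quasi-likelihood fits on genes that pass the default filter on low counts, and Benjamini-Hochberg adjustment over all tested genes at 0.05. Standard errors are the log2 fold change over the root of F. Fits were tested on simulated data in which 200 genes were changed. Simulated counts had the real mean levels and library totals, with the same spread for every gene. The changed genes were drawn from those above a floor of counts. The length correction used a lowess trend (span 0.3) per library as an offset. Alternatives were DESeq2 1.42.0, RLE size factors, no filter, a filter of 1 CPM in 3 libraries, a threshold of 0.1, an additive fit, fits within a genotype, the replicate block and each library left out. Counting intervals are 95% exact binomial ones. The length corrections combined with DESeq2, the leave-one-out fits of DESeq2 and the fits without replicate 1 of both genotypes were chosen after seeing the data.

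Replicate numbers come from the labels. Same-numbered Alkbh5-deficient and WT fed libraries deviated together across genes (r = 0.71, 0.27 and 0.17 for numbers 1, 2 and 3). The number was therefore used for the ratios of pairs and as a block in alternative fits, but not in the main tests. The s4U fits had no such block and treated the 6 fed libraries as independent. Alkbh5-deficient replicate 3 with WT replicate 2, and Alkbh5-deficient replicate 2 with WT replicate 3, correlated more closely (r = 0.36 each) than numbers 2 and 3 did with themselves. No 2 libraries of the same fed group agreed within sampling noise, with a chi-square per gene of at least 7.92. Members and lists were chosen with earlier results of these data known. Values per library are given for the main pathway genes, for members past the threshold by either tool and for the 6 members of smallest p in each comparison. Trp53inp1 was added for its spread. Apaf1 is given by its fed range and the value of each unlabelled library. Of each further list, the genes past the threshold are named, or else those of smallest p.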

Additional observations from a re-analysis of the deposited data

Results flagged for a closer look

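Reads that fell on both Bax and Gm45808, which overlap on the same strand, were listed in the files as an entry of their own and entered no comparison above. They are named here because they are a signal outside the gene counts. They came to 116 counts over the 8 libraries, with 12, 17 and 9 in the Alkbh5-deficient fed, 11, 26 and 18 in the WT fed, 10 in the Alkbh5-deficient unlabelled and 13 in the WT unlabelled library. No other member had such an entry.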

How the results depend on the processing

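No member passed the edgeR threshold with s4U, with genotype or for their interaction under any alternative run with edgeR, and genotype passed none with the replicate block (0 members). Of the named genes' values under the alternatives, 312 of 338 with s4U and 152 of 165 with genotype kept their direction and their side of the threshold. With s4U, DESeq2 passed 2 members as lower, 1 with the length correction, and 0 to 3 with 1 library left out, where the third was Trp53inp1, without WT fed replicate 2. Over all genes the s4U counts were 4 higher and 0 lower. They were 16 and 21 without the low-count filter, 331 and 279 with DESeq2, 188 and 74 with DESeq2 and length correction, 1 and 0 with length correction, 0 and 0 within either genotype, and 1 and 0 without replicate 1 of both genotypes. With 1 library left out they were 0 to 2 higher and 0 lower by edgeR, and 3 to 452 higher and 0 to 495 lower by DESeq2. The members' median log2 fold change with s4U, -0.11, was 0.0045 within Alkbh5-deficient cells, 0.024 without replicate 1 of both genotypes, and -0.11 to 0.0043 with 1 library left out.

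With genotype, all genes called lower were 1, and 2 without the filter or with DESeq2. The members' median was -0.12 to 0.056 with 1 library left out, and that of the interaction -0.060 to 0.096. The interaction has no value without either unlabelled library. Signs that turned with s4U were those of Ccng1 (-0.086 within WT), Gdf15 (0.47 within WT, 0.38 without replicate 1 of both genotypes) and, with 1 library left out, Cdkn1a (-0.042 to 0.18), Ccng1 (-0.090 to 0.14) and Gdf15 (-0.56 to 0.47). With genotype they were Gdf15 (0.21 in the additive fit), Pmaip1 (0.0018 without the filter, 0.028 with the replicate block and length correction) and, with 1 library left out, Trp53 (-0.21 to 0.043), Cdkn1a (-0.32 to 0.14), Gdf15 (-0.54 to 0.44), Bax (-0.35 to 0.0045), Bbc3 (-0.87 to 0.030) and Pmaip1 (-0.10 to 0.058). The cause was not tested. At 5723245 to 8615997 counts per library, Eda2r was too low to be tested in any comparison and Phlda3 in that of genotypes.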
